A study of Mus musculus with 6 samples.

Results

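The 81 genes described here encode subunits of the mitochondrial respiratory chain and of the ATP synthase. They were taken by symbol from the platform's gene names (Nduf followed by a, b, c, s or v and a digit, Sdha to Sdhd, Uqcr, Cox4 to Cox8 and Atp5), out of 18194 genes with a probe set that names 1 gene. By symbol, 35 belong to complex I, 4 to complex II, 8 to complex III, 17 to complex IV and 17 to the ATP synthase. Where several probe sets name a gene, the brightest on average stands for it. Their RNA was measured on 6 Affymetrix 3' arrays, with 2 arrays in each of 3 groups, in cells sorted from cultures of the mouse line OLV2-1, embryonic stem cells whose Oct4 locus carries the fluorescent reporter Venus in every group. ESC were undifferentiated cells, labelled as the Oct4-Venus+ fraction and, in the sorting protocol, also CD31+. EpiSC-like cells were the Oct4-Venus+/Pecam1- fraction of aggregates on day 3 of SFEBq, a serum-free floating culture used for neural induction, and Day7 cells were the Oct4-Venus+ fraction of such aggregates on day 7, for which no Pecam1 gate is named. Trypsin was used to dissociate ESC and day 3 cells, which were then stained with antibody, whereas EDTA was used at day 7, so day 7 and the way of dissociation cannot be told apart. The labels name 1 line and leave it unsaid whether the arrays within a group stem from separate cultures. The p-values therefore cover the spread between these arrays alone, which may be technical.

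Complex I passes electrons from NADH, and complex II from succinate, to ubiquinone. Complex III hands them to cytochrome c and complex IV, cytochrome c oxidase, to oxygen. Complexes I, III and IV pump protons across the inner mitochondrial membrane, and the ATP synthase uses their return to make ATP. A few subunits are encoded by mitochondrial DNA and the rest, including all genes described here, by the nucleus. Naive mouse embryonic stem cells are known to respire more than primed, epiblast-like pluripotent cells, which lean on glycolysis, and lower expression of cytochrome c oxidase genes has been described in primed cells. Several complex IV subunits have paralogues that are typical of heart and muscle, lung or testis.

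Nuclear respiratory chain genes are known targets of NRF1, of GABP (an ETS family factor) and of YY1, so the promoters of the set were searched for a short core of each factor's motif. The RefSeq promoter table (assembly GRCm38.p6) held 71 windows for 66 of the 81 genes, each running from 250 bases before a gene's start to 50 after it. Both strands were searched, and in no window did matches of different motifs overlap. GCGCATGCG, for NRF1, was found in 9.86% of these windows and in 1.75% of all 32851 windows of the table. CCGGAAG, for the ETS family, was found in 23.9% against 8.86%, and AAGATGGCG, for YY1, in 8.45% against 1.40%. Among windows of protein coding genes only, the shares were 2.35%, 11.6% and 1.83%. In all, 25 of the 66 genes held at least 1 of the 3 motifs and 41 held none of these letters in the window. A match is a description of the sequence, not a bound site.

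Uqcrc1, Cox6b1 and Ndufc1 are shown as an example of each motif, with the match in capitals on either strand. Cox6b2 and Cox7a1 are shown because they are the complex IV isoforms with the largest differences between the groups, and neither window holds any of the 3 motifs. The windows are chr9:108936398-108936697 on the plus strand, chr7:30626065-30626364 on the minus strand, chr3:51408906-51409205 on the minus strand, chr7:4753045-4753344 on the minus strand and chr7:30183921-30184220 on the plus strand, written 5′ to 3′ on the gene's strand. In Uqcrc1 the NRF1 letters match on both strands in overlapping positions.
Uqcrc1: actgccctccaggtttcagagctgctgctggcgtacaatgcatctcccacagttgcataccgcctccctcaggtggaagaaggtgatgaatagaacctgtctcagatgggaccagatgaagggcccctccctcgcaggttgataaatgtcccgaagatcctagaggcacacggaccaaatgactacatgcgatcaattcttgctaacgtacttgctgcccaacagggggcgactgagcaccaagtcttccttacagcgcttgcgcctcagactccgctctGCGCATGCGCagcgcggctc
Cox6b1: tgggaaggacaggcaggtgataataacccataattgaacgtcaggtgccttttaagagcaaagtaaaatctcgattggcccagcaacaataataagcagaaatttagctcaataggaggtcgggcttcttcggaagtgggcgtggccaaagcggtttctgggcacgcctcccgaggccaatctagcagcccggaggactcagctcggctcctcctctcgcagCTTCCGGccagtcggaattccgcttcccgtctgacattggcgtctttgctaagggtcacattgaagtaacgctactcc
Ndufc1: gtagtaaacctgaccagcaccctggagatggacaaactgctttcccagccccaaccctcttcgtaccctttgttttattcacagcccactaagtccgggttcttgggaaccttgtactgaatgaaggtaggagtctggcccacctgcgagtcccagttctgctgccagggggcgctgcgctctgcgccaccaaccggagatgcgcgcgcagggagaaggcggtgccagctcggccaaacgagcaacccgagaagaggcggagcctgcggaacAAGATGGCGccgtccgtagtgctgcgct
Cox6b2: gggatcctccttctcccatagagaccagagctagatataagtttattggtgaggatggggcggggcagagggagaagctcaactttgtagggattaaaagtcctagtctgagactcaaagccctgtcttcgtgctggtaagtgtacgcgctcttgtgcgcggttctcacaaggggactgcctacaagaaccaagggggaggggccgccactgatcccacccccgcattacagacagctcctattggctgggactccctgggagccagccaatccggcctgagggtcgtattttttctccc
Cox7a1: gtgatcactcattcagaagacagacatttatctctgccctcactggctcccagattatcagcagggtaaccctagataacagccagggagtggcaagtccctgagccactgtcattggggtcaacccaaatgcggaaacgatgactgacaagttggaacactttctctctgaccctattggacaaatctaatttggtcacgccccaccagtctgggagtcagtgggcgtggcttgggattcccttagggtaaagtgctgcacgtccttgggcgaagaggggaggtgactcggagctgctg

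The 25 genes with a motif and the 41 without differed little. The median log2 difference from ESC at day 3 was -0.11 with a motif and -0.04 without. At day 7 it was -0.08 and -0.02.

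The labels were first set against marker genes. Pou5f1, the Oct4 gene itself, had signals of 7927 and 14055 on the ESC arrays, 6244 and 9923 on the EpiSC-like arrays and 6533 and 9062 on the Day7 arrays. Among 11 markers of pluripotent cells, Esrrb and Klf4, which belong to the naive state, were called lower at day 3, and among 8 neural progenitor markers 4 were called higher at day 3 and 5 at day 7. These and the other marker calls below were lost with a pseudocount of 1 and with the replicate number as a block, where limma called 0 genes in all. No marker was listed at 0. The summed signal of 12 primitive and visceral endoderm markers was 1133 to 1325 in ESC and 984 to 1144 in EpiSC-like cells, but 3009 and 11913 on the Day7 arrays. That of 7 neuron markers was 9803 to 14441 in ESC, 2258 to 2859 in EpiSC-like cells and 3004 and 6591 at day 7. Gene by gene, 6 of these 7 were above ESC at day 7, and only Stmn2 was below, at -2.45 on the log2 scale. Their median log2 difference was 0.98, but -0.23 within replicate 1 and 2.22 within replicate 2 arrays. The sum of 7 fibroblast and mesenchyme markers stayed between 263 and 572 on all arrays. None of the endoderm markers was called, although 11 of the 12 were above ESC at day 7. Of the neuron markers Stmn2 was called lower at day 3 and at day 7 and Nhlh2 higher at day 7, and Col1a2 of the last list was called higher at day 3. The part of these markers in the day 7 values below was not tested. In such bulk samples fewer cells of a type and less RNA per cell cannot be told apart.

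The arrays numbered 1 and 2 in the labels differed in range. The highest signal was 30793 to 36841 on the arrays numbered 1 and 63296 to 66643 on those numbered 2, although all arrays had the same trimmed mean. Spiked hybridization controls averaged 5591 to 7108 on the former and 11227 to 13512 on the latter. Poly-A spike controls averaged 65.4 and 71.9 on ESC and EpiSC-like replicate 2 and 500.3 to 720.2 on the other arrays. The subunit genes, most of which are bright, were mostly higher on the arrays numbered 2. Of the 81, 74 were higher on ESC replicate 2 than on ESC replicate 1, 72 were higher on the EpiSC-like and 71 on the Day7 array numbered 2. The median gap was 0.38, 0.36 and 0.32 on the log2 scale, against 0.0066, 0.017 and 0.046 over all genes. Differences are therefore also given within replicate 1 and within replicate 2 arrays, where each side has the same number. The part of the gap in the differences between groups was not tested.

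**Figure D1:**
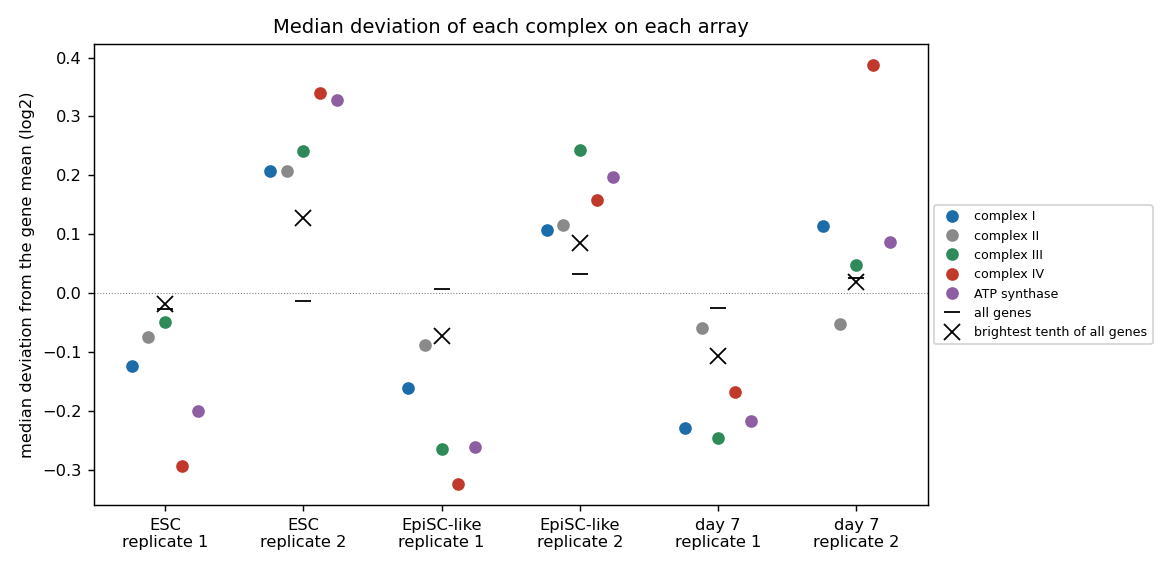
Median deviation of the genes of each complex from their own mean over the 6 arrays (log2 of signal + 16, y axis) on each array (x axis), with all 18194 genes as dashes and the brightest 10% of genes as crosses. All 5 complexes lie below 0 on the replicate 1 arrays and, other than complex II at day 7, above 0 on the replicate 2 arrays, and complex IV reaches 0.39 on Day7 replicate 2.

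The subunit genes gave bright signals in all 3 groups, and no difference between groups passed the test. Of the 81 genes, 75 had a mean no lower than the median over all genes and 68 lay in the top 10%. Values below are log2 differences of signal + 16, with the standard error of limma's fit. limma also gave each difference a p-value, and a gene counts as called where that p, adjusted by Benjamini-Hochberg across 18194 genes, is under 0.05. None of the 81 was called higher or lower at day 3 against ESC, where 1.31% of all genes were called higher and 0.583% lower (1.9% in either direction). None was called at day 7 against ESC either (0.753% and 0.286% of all genes, 1.04% in either direction) or at day 7 against day 3 (0.022% and 0.0165%, 0.0385% in either direction). At an unadjusted p under 0.05, limma gave 0, 5 and 4 members in these comparisons, against 16%, 18.3% and 14.1% of all genes. Among the brightest 10% of genes, where most members lie, these shares were smaller: 10.2%, 12.4% and 9.23%. Only 0.824%, 0.165% and 0% of those bright genes were called.

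The median over the 81 genes was -0.06 at day 3 against ESC, -0.05 at day 7 against ESC and -0.03 at day 7 against day 3. Over all genes it was 0.03, 0.02 and -0.02. The spread was narrow: 77, 71 and 72 of the 81 genes lay within 0.5 of 0 (69.1%, 65.3% and 70.1% of all genes, and 84.5%, 78.8% and 84.7% of the brightest 10%). Within replicate 1 arrays the members' medians were -0.02, -0.0065 and 0.0013, and within replicate 2 arrays -0.11, -0.07 and -0.04. With quantile normalization the medians were 0.0014, -0.07 and -0.02, and 41 of 81 genes were above 0 at day 3. Leaving out some of the arrays singly turned the sign of these small medians. It also left the replicate numbers unequal between the groups, and most members were brighter on replicate 2 arrays. These values therefore cannot tell whether a single array carries a median. At day 3 against ESC the median was -0.25 without ESC replicate 1 and 0.16 without ESC replicate 2, and 0.10 without EpiSC-like replicate 1 and -0.24 without EpiSC-like replicate 2. At day 7 against ESC it was -0.28 and 0.14 without ESC replicates 1 and 2, and 0.12 and -0.21 without Day7 replicates 1 and 2. At day 7 against day 3 it was -0.19 and 0.17 without EpiSC-like replicates 1 and 2, and 0.16 and -0.19 without Day7 replicates 1 and 2. The comparisons share groups, so their values are not independent of each other.

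The arrays limit what could be seen. The 95% confidence interval of a member reached a median of 0.71 to either side of its value with 2 arrays a group. Single changes under about this size could therefore mostly not be told from no change. The interval is not adjusted for the number of genes tested, so larger changes could also go uncalled. Cox7a1, at 1.34 for day 7 against day 3, was not called (limma adjusted p = 0.0912). Ndufa4l2, at 3.26 for day 7 against ESC, was not called either (limma adjusted p = 0.0853). The 95% interval lay wholly inside a 2-fold change either way for 59 of the 81 genes at day 3, for 53 at day 7 against ESC and for 54 at day 7 against day 3.

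**Figure D2:**
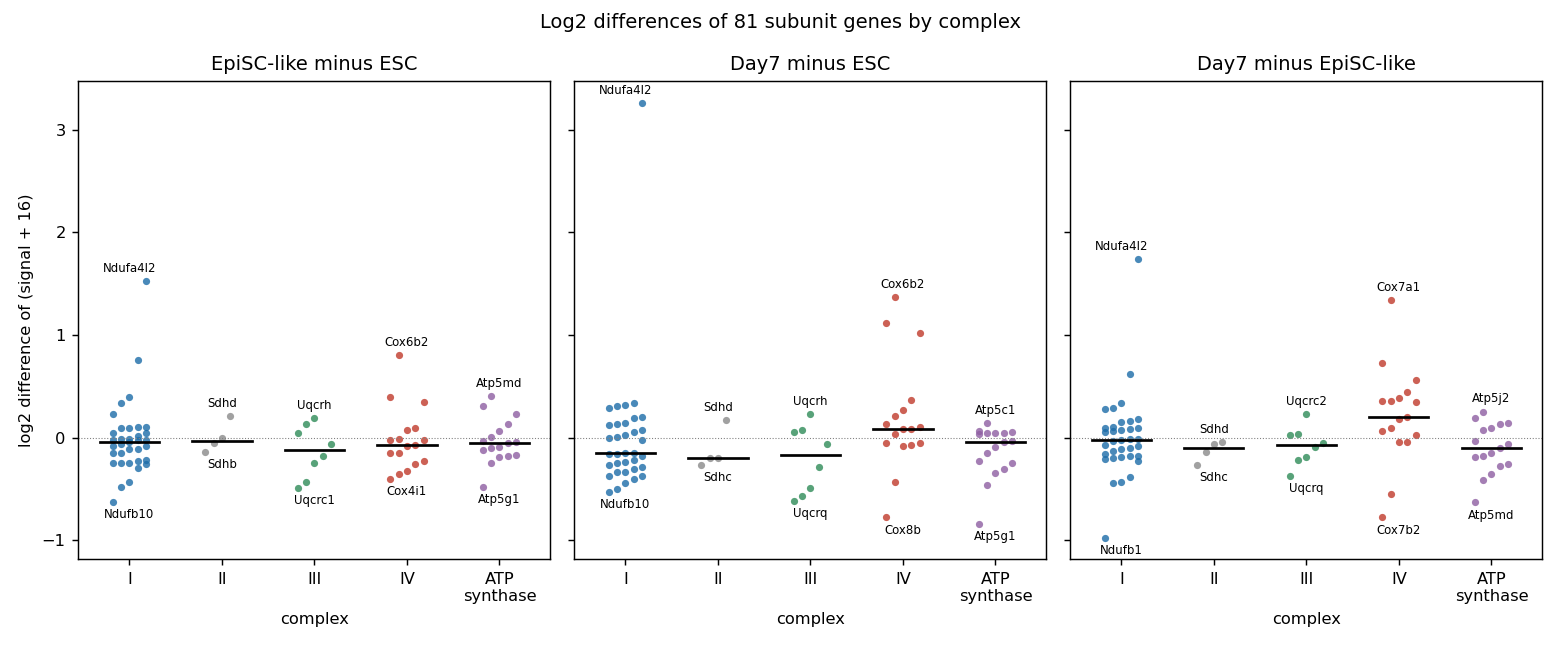
Log2 differences of the 81 genes (y axis) by complex (x axis) in the 3 comparisons, with 1 point per gene, a black bar at each complex's median and the lowest and highest gene named. Of the 81 points, 77, 71 and 72 lie within 0.5 of 0, and those outside include Ndufa4l2 at 3.26 and Atp5g1 at -0.84 at day 7 against ESC and Ndufb1 at -0.97 at day 7 against day 3.

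Counting only genes whose 2 arrays of each group do not overlap, 8 members were higher and 10 lower at day 3 against ESC (25% and 19.9% of all genes), 6 higher and 19 lower at day 7 against ESC (26.6% and 23.5%), and 6 higher and 12 lower at day 7 against day 3 (21.3% and 24.5%). The share that was higher without overlap was thus below that of all genes each time, and the share lower was near it at day 7 against ESC. Among the brightest 10% of genes, 18.2% were higher and 23.9% lower at day 3 against ESC. These shares were 18.7% and 33.8% at day 7 against ESC, and 17.4% and 27.4% at day 7 against day 3. The members' shares lay below those of the brightest 10% each time. Lower values in both replicate numbers were seen in 36 of 81 genes at day 3 (31.4% of all genes, 46.9% of the brightest 10%) and in 34 at day 7 against ESC (31.7% and 46.0%). Lower by over 0.25 in both numbers were 7 members at day 3 (14.6% of all genes), 12 at day 7 against ESC (16.1%) and 6 at day 7 against day 3 (15.6%). Higher by over 0.25 in both were 5 (19.1%), 6 (19.4%) and 7 (14.9%).

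**Figure D3:**
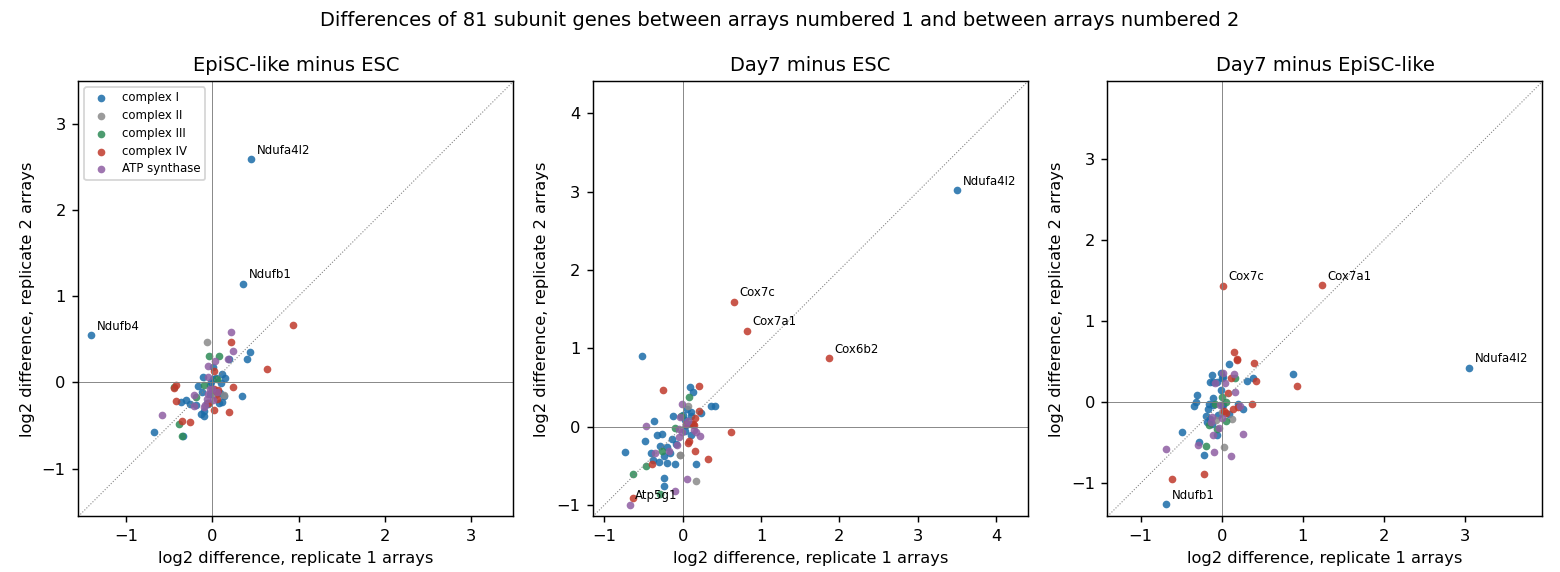
Log2 difference of each of the 81 genes between arrays numbered 1 (x axis) and between arrays numbered 2 (y axis) in the 3 comparisons, coloured by complex; the dotted line marks equal values and genes beyond 0.95 on either axis are named. Cox7a1 lies near the line at day 7, whereas Ndufa4l2 lies far from it at day 3.

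The 35 complex I genes, which include both the catalytic arm that takes up NADH and the membrane arm, had a median of -0.04 at day 3, -0.15 at day 7 against ESC and -0.02 at day 7 against day 3. At day 7, 17 of 35 were lower than ESC in both replicate numbers and 12 higher. The lowest in both comparisons with ESC was Ndufb10, an accessory subunit of the membrane arm. Its signals were 4430.4 and 4785 in ESC, 2769.6 and 3197 in EpiSC-like cells and 2658 and 3810.1 in Day7 cells. Both later groups lay below both ESC arrays and overlapped each other. The difference was -0.63 ± 0.26 at day 3 (limma adjusted p = 0.318) and -0.53 ± 0.26 at day 7 (adjusted p = 0.351).

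Ndufb1, a small accessory subunit of the same arm, was the lowest complex I gene at day 7 against day 3. Its own signals were highest at day 3. It had signals of 167 and 184 in ESC, 218 and 426 in EpiSC-like cells and 129 and 169 in Day7 cells. EpiSC-like replicate 2 stood well above the rest. The difference from ESC at day 3 was 0.75 ± 0.35 (adjusted p = 0.362), made of 0.36 within replicate 1 and 1.15 within replicate 2, and the difference at day 7 against day 3 was -0.97 ± 0.35 (adjusted p = 0.294).

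The gene with the largest difference in the whole set was Ndufa4l2. It is a paralogue of Ndufa4 that is known to be induced by hypoxia, and its signals were 14.2 and 18.3 in ESC, 25.3 and 191 in EpiSC-like cells and 327 and 262 in Day7 cells. Both ESC arrays were dim, both Day7 arrays were far above them, and the EpiSC-like arrays disagreed. At day 7 it was 3.26 ± 0.69 above ESC (adjusted p = 0.0853; 3.51 within replicate 1 and 3.02 within replicate 2). At day 3 it was 1.52 ± 0.69 above ESC (adjusted p = 0.351), and this rested on replicate 2: 0.45 within replicate 1 and 2.59 within replicate 2. Without EpiSC-like replicate 2 the day 3 difference was 0.36, and without EpiSC-like replicate 1 it was 2.68. With a pseudocount of 1 or 64 in place of 16, the day 7 difference was 4.10 or 2.15.

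Ndufa4 itself carries a complex I name but is now regarded as a complex IV component. It had 8812 and 13719 in ESC, 8688 and 13759 in EpiSC-like cells and 7468 and 8729 in Day7 cells, so both Day7 arrays were just below both ESC arrays. The difference at day 7 against ESC was -0.44 ± 0.34 (adjusted p = 0.542). The ratio of Ndufa4l2 to Ndufa4 was higher at day 7 than in ESC in both replicate numbers, by 3.71 on the log2 scale with the pseudocount of 16. As the ESC signals of Ndufa4l2 are dim, the size of this change depends on the pseudocount and is only rough.

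Ndufb4, another accessory subunit, cannot be read from its own probe set, which was dim (52.0 and 15.3, 9.72 and 29.8 and 31.4 and 42.3 in the 3 groups). Bright probe sets name it together with its copies Ndufb4b and Ndufb4c. On these the value at day 3 against ESC was -0.53 and -0.54, and at day 7 -0.07 and -0.16, and which copy gave the signal cannot be told. Ndufa11 and Ndufs6 are measured only by probe sets that also name a copy (Ndufa11b, Ndufs6b), and were not counted among the members. On its bright probe set, Ndufa11 or its copy was at -0.0051 at day 3 and -0.51 at day 7 against ESC.

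Complex II, succinate dehydrogenase, links the chain to the citric acid cycle, and none of its 4 genes was called. Sdha, the flavoprotein that oxidises succinate, had signals of 4806 and 5702 in ESC, 4912 and 5158 in EpiSC-like cells and 4677 and 4444 in Day7 cells. Sdhb, the iron-sulphur subunit, had 5245 and 7928, 5127 and 6698 and 5135 and 6165 in the same order. The largest difference from ESC among the 4 was -0.26 ± 0.28 for the membrane anchor Sdhc at day 7 (95% interval -0.94 to 0.42), where the 2 arrays read 2255 and 1449 against 1999 and 2362 in ESC. Sdhd, the other anchor, was at 0.21 ± 0.26 at day 3 and 0.17 ± 0.26 at day 7. That Sdhc value had the smallest limma adjusted p of the 4 genes in the 3 comparisons, 0.678.

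Of the 8 complex III genes none was called, and 5 were lower than ESC in both replicate numbers at day 3 and 5 at day 7, with medians of -0.12 and -0.17. Uqcrc1, a core protein of the complex, had signals of 9317 and 14077 in ESC, 7323 and 9124 in EpiSC-like cells and 7631 and 7768 in Day7 cells. Every later array was below both ESC arrays. The difference was -0.49 ± 0.28 at day 3 (adjusted p = 0.48) and -0.57 ± 0.28 at day 7 (adjusted p = 0.347). Its day 3 value was -0.78 without ESC replicate 1 and -0.19 without ESC replicate 2.

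Uqcrq, a small ubiquinone-binding subunit, had 5283 and 6135 in ESC, 3894 and 5889.7 in EpiSC-like cells and 3397 and 4034 in Day7 cells. Only the Day7 arrays were clear of the ESC arrays, at -0.62 ± 0.28 (adjusted p = 0.314), with -0.63 within replicate 1 and -0.60 within replicate 2. Averaging in its 3 further, dim probe sets moved this value to 0.02. Uqcr10, a small subunit named here after its values were seen, was lower on all 3 of its probe sets: -0.43, -1.18 and -1.13 at day 3, and -0.49, -0.59 and -0.60 at day 7. Uqcrh, the hinge protein that aids electron transfer to cytochrome c, lay on the other side, at 0.19 ± 0.30 and 0.23 ± 0.30. Uqcrc2, the other core protein, was at -0.18 ± 0.27 and 0.058 ± 0.27, and its second bright probe set gave -0.17 at both days.

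For complex IV none of the 17 genes was called, and the sign of the median differed between the days. It was -0.07 at day 3, 0.08 at day 7 against ESC and 0.21 at day 7 against day 3, and 10 of its 17 genes were higher at day 7 than at day 3 in both replicate numbers (29.9% of all genes). In the same count complex I had 7 of 35, complex II 0 of 4, complex III 3 of 8 and the ATP synthase 4 of 17. Of the 10 complex IV genes, Cox5b and Cox6a1 had further bright probe sets below 0. These were at -0.17, -0.14 and -0.12 for Cox5b and at -0.21 for Cox6a1. Further bright probe sets of Cox5a, Cox6b1, Cox7a2l and Cox7c were above 0. On the deposited scale the rise was not particular to complex IV: outside the set, 38 of 46 cytosolic ribosomal protein genes were higher in both, with a median of 0.19. With quantile normalization the ribosomal median was 0.02, with 27 of 46 above 0. The complex IV median was then 0.10, with 12 of 17 above 0. Within replicate 1 and replicate 2 arrays, the complex IV median at day 7 against day 3 was 0.16 and 0.20. With arrays centred on their own median, which also lowered the median of all genes from -0.02 to -0.12, it was 0.11, and the value against ESC turned to -0.08. Without EpiSC-like replicate 1 it was -0.06 and without EpiSC-like replicate 2 it was 0.41. Without Day7 replicate 1 it was 0.60 and without Day7 replicate 2 -0.00032. The value against ESC was -0.19 and 0.40 without ESC replicates 1 and 2, and 0.30 and -0.18 without Day7 replicates 1 and 2. The difference between complexes was not tested.

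Among the widely expressed isoforms, Cox4i1, the main form of subunit 4, had 15879 and 29979 in ESC, 12491 and 21924 in EpiSC-like cells and 16787 and 26314 in Day7 cells. In each replicate number the EpiSC-like array was the lowest of the 3, but the groups overlapped, with replicate 2 the brighter in each. The differences were -0.40 ± 0.44 at day 3 (adjusted p = 0.742) and 0.34 ± 0.44 at day 7 against day 3 (adjusted p = 0.786). The day 3 value was -0.86 without ESC replicate 1 and 0.06 without ESC replicate 2. Those fits set both EpiSC-like arrays against 1 ESC array, so the gap between replicate numbers enters them. Within each replicate number Cox4i1 was lower at day 3 by over 0.25. Cox6b1, which joins the monomers of the dimeric enzyme, had 14708 and 21166, 12290.5 and 15455 and 16152 and 21683 in the same order. Its values were -0.36 ± 0.30 at day 3 and 0.44 ± 0.30 at day 7 against day 3 (adjusted p = 0.574), and its second probe set gave -0.26 and 0.33. Cox6a1, Cox7a2 and Cox8a, the widely expressed forms of 3 further small subunits, were at -0.071, 0.076 and -0.15 at day 3 and at 0.13, 0.036 and -0.077 at day 7 against ESC, all within 1 standard error of 0. A second bright probe set of Cox6a1 gave -0.23 at day 3 and -0.45 at day 7 against ESC. That of Cox7a2 gave 0.085 and -0.043, and that of Cox8a gave -0.15 and -0.022.

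Among the isoforms typical of other tissues, Cox7a1 and Cox6b2 had the largest differences. Cox7a1, the heart and muscle form of subunit 7a, had signals of 833 and 705 in ESC, 616 and 603 in EpiSC-like cells and 1476 and 1669 in Day7 cells. The groups did not overlap: day 3 was the lowest and day 7 the highest, about 2.05 times ESC by mean signal. The difference was -0.32 ± 0.23 at day 3, 1.02 ± 0.23 at day 7 against ESC (adjusted p = 0.0939) and 1.34 ± 0.23 at day 7 against day 3 (adjusted p = 0.0912). The last was 1.24 within replicate 1 and 1.44 within replicate 2. Cox7a1 was the only member called under any alternative that was run: with a pseudocount of 64 limma's adjusted p was 0.0327 at day 7 against ESC and 0.0334 against day 3, and among genes above the 25th percentile of mean signal it was 0.0495 against day 3. The ratio of Cox7a1 to Cox7a2, the liver-type form, was -0.40 at day 3 and 0.98 at day 7 relative to ESC.

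Cox6b2, the testis form of subunit 6b, was lowest in ESC and highest at day 7. Its signals were 778 and 1946 in ESC, 1509.5 and 3102 in EpiSC-like cells and 2877 and 3571 in Day7 cells. The order was the same in both replicate numbers, and both Day7 arrays exceeded both ESC arrays. The difference from ESC was 0.80 ± 0.51 at day 3 (adjusted p = 0.525) and 1.37 ± 0.51 at day 7 (adjusted p = 0.234). At day 7 it was 1.86 within replicate 1 and 0.87 within replicate 2. It was 0.72 without ESC replicate 1 and 2.02 without ESC replicate 2. The day 3 value was 0.15 and 1.46 without ESC replicates 1 and 2, and 1.32 and 0.29 without EpiSC-like replicates 1 and 2. The ratio of Cox6b2 to Cox6b1 was higher than in ESC by 1.16 at day 3, with 1.20 within replicate 1 and 1.12 within replicate 2, and by 1.28 at day 7.

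**Figure D4:**
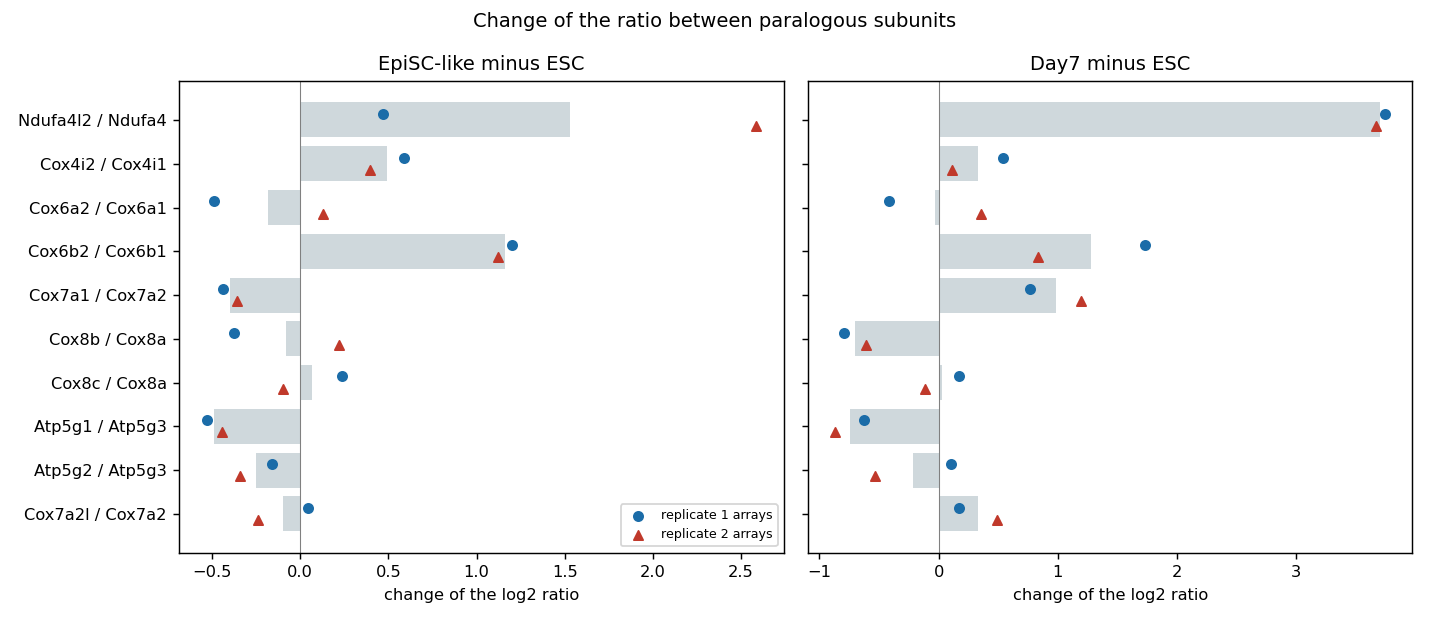
Change of the log2 ratio of each paralogue to its partner (x axis) at day 3 and at day 7 relative to ESC; bars give the difference of group means and points the value within replicate 1 and within replicate 2 arrays. The points lie on the same side of 0 for Ndufa4l2, Cox4i2, Cox6b2, Cox7a1 and Atp5g1 in both panels.

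The remaining tissue isoforms were dim, apart from Cox8c, whose mean was above the median over all genes. Cox4i2, the lung and hypoxia-associated form of subunit 4, had 32.7 and 43.0, 41.5 and 40.8 and 58.8 and 40.1 in ESC, EpiSC-like and Day7 cells. Cox6a2, the heart and muscle form of subunit 6a, had 97.4 and 98.2, 67.7 and 93.3 and 79.2 and 142. For neither did Day7 arrays separate from ESC arrays. Cox7b2, a testis paralogue of subunit 7b, had 109 and 102, 130.3 and 147 and 80.0 and 68.8, and the 3 groups did not overlap: it was 0.35 ± 0.22 at day 3 and -0.78 ± 0.22 at day 7 against day 3 (adjusted p = 0.209). Cox8b, a heart and muscle form of subunit 8, was at 14.3 and 19.3 in ESC and 3.47 and 2.77 in Day7 cells, which are among the dimmest signals of the set, and its difference ranged from -2.10 to -0.27 with a pseudocount of 1 or 64. Cox8c, the testis form, had 238 and 399, 274 and 312 and 303 and 295, and the groups overlapped.

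Cox7a2l, which takes part in joining complexes III and IV into supercomplexes, had 5293 and 6098 in ESC, 5509 and 5668 in EpiSC-like cells and 6136 and 8728 in Day7 cells. Both Day7 arrays were the highest, at 0.36 ± 0.26 above ESC (adjusted p = 0.517), and its further probe sets gave 0.18 and 0.20. Cox7c, a small core-associated subunit named here because it is one of the 5 genes with an unadjusted p under 0.05 at day 7, had 346 and 349, 545 and 391 and 553 and 1084. Day7 replicate 2, the array with the high endoderm and neuron marker sums of its group, was far above the rest, and the part of those markers was not tested. The difference at day 7 was 1.12 ± 0.36 (adjusted p = 0.183), with 0.65 within replicate 1 and 1.59 within replicate 2, and its other probe set gave 0.86. The 5 genes were Cox6b2, Cox7a1, Cox7c, Cox8b and Ndufa4l2, and the 4 at day 7 against day 3 were Cox7a1, Cox7b2, Ndufa4l2 and Ndufb1.

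**Figure D5:**
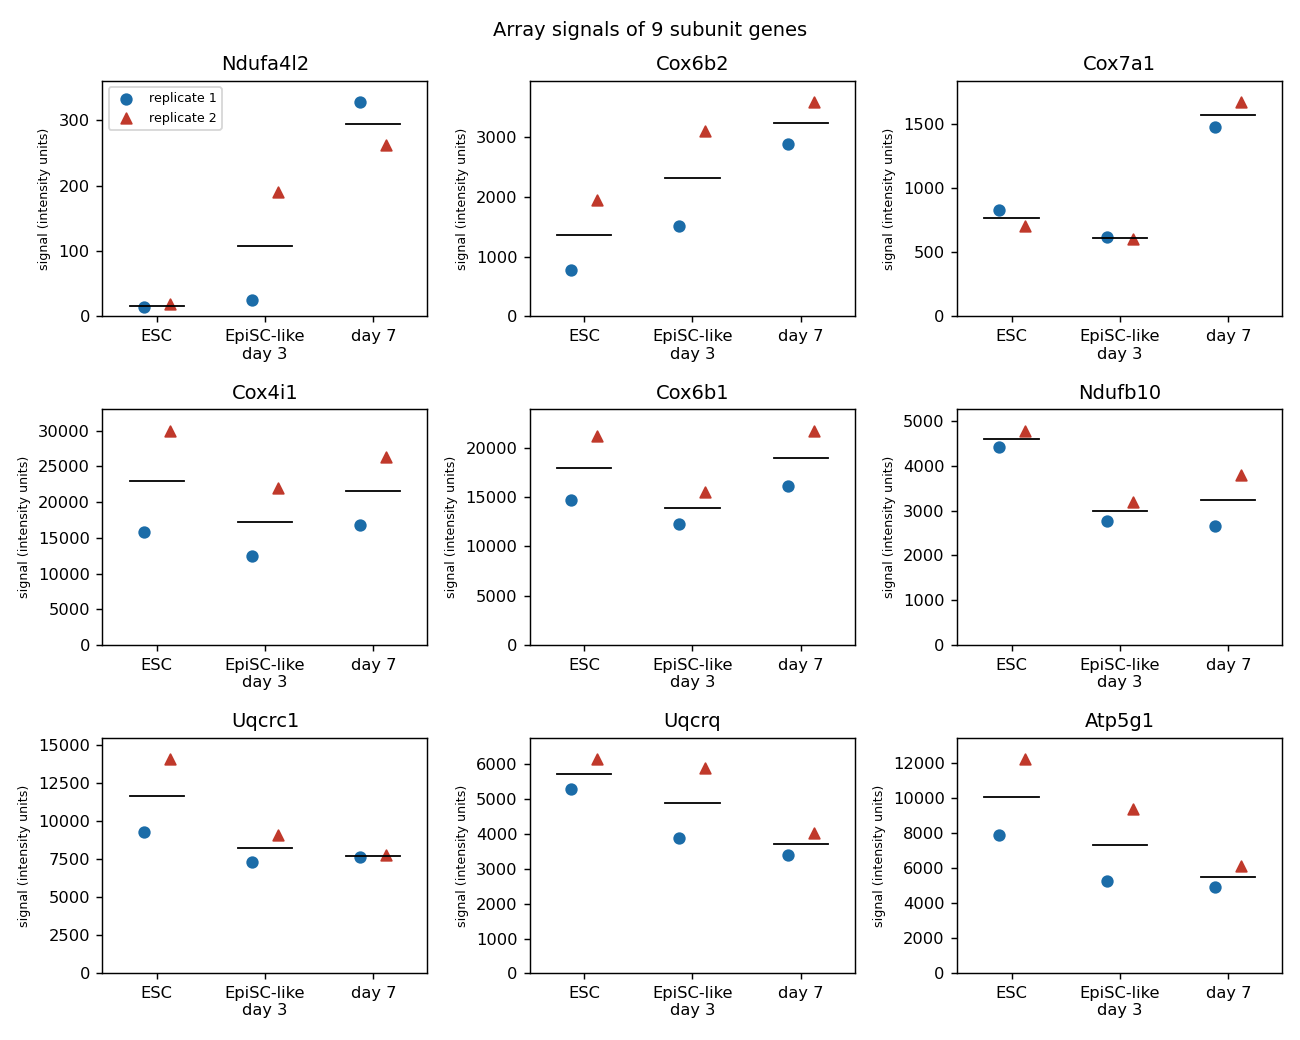
Signal of 9 subunit genes (linear intensity, y axis from 0) on each array by group (x axis), with replicate 1 as circles, replicate 2 as triangles and the group mean as a bar. By group mean Ndufa4l2, Cox6b2 and Cox7a1 are highest at day 7, and Uqcrc1, Uqcrq and Atp5g1 are lowest there. On the replicate 1 arrays Uqcrc1 is lowest at day 3. Cox4i1 and Cox6b1 are lowest at day 3 in both replicate numbers.

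The ATP synthase genes were close to ESC, with medians of -0.05 at day 3, -0.04 at day 7 against ESC and -0.10 at day 7 against day 3. The lowest of them in both comparisons with ESC was Atp5g1. Atp5g1, Atp5g2 and Atp5g3 encode the same mature c subunit, which forms the rotating ring, behind different import sequences. Atp5g1 had signals of 7919 and 12232 in ESC, 5283 and 9405 in EpiSC-like cells and 4949.9 and 6123 in Day7 cells. Both Day7 arrays were below both ESC arrays, and in each replicate number the order was ESC, EpiSC-like, Day7 from high to low. The difference was -0.48 ± 0.37 at day 3 (adjusted p = 0.611) and -0.84 ± 0.37 at day 7 (adjusted p = 0.296; -0.68 within replicate 1 and -0.997 within replicate 2). The day 3 value was -0.07 without EpiSC-like replicate 1 and -0.90 without EpiSC-like replicate 2. Averaging in its second, dim probe set gave -0.06 at day 3 and -0.32 at day 7.

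Atp5g3 had 15124 and 23982, 14585 and 25137 and 14598 and 21909 in the 3 groups, with a difference of -0.091 ± 0.39 at day 7. The ratio of Atp5g1 to Atp5g3 was -0.49 at day 3 and -0.75 at day 7 relative to ESC, with -0.63 and -0.87 within replicates 1 and 2. Atp5g2 was at -0.24 ± 0.41 and -0.31 ± 0.41. Atp5md, a membrane subunit also known as Usmg5 or DAPIT, had the reverse order of replicates: 7471 and 3059 in ESC, 8682 and 4605 in EpiSC-like cells and 5387 and 3088 in Day7 cells. It was highest at day 3 in both numbers, with a difference of 0.40 ± 0.53 from ESC, and of -0.63 ± 0.53 for day 7 against day 3. The former was 1.04 without ESC replicate 1 and -0.24 without ESC replicate 2. The central shaft subunit Atp5c1 was at 0.14 ± 0.30 at day 7, and the membrane subunit Atp5j2 at 0.25 ± 0.33 for day 7 against day 3, the highest of the complex in these comparisons.

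Related gene lists, chosen with earlier results of these data known, showed 0 calls by limma in any comparison, with 0 to 4 genes of a list at an unadjusted p under 0.05. The 4 further electron carriers and subunits outside the symbol rule (Ndufab1, Cyc1, Cycs and Etfdh) had medians of 0.05 at day 3 and -0.04 at day 7 against ESC. The 13 subunits encoded by mitochondrial DNA were not analysed here. Of 18 complex IV assembly factors, 4 had an unadjusted p under 0.05 at day 7 against ESC, a share near the 18.3% of all genes. The lowest of the 18, Sco1, a copper chaperone, had 328 and 341 in ESC, 348 and 219 in EpiSC-like cells and 189.7 and 155 in Day7 cells, and was -0.90 ± 0.29 at day 7 (adjusted p = 0.177). Of 6 complex III assembly factors, Bcs1l, which inserts the Rieske protein, read 1075 and 1168, 672 and 692 and 605 and 621 and was -0.70 ± 0.22 at day 3 and -0.85 ± 0.22 at day 7 (adjusted p = 0.178 and 0.117). The 14 complex I, 4 complex II and 3 ATP synthase assembly factors had medians of -0.09, 0.18 and -0.12 at day 7 against ESC.

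Among 16 regulators of mitochondrial biogenesis, the median was -0.06 at day 3 and -0.03 at day 7. Below ESC were 8 and 9 of them, with Tfb2m the lowest at -0.50 and -0.71. Gabpb1, a subunit of GABP, had 495 and 347 in ESC, 744 and 867 in EpiSC-like cells and 911 and 774 in Day7 cells. Every later array was above both ESC arrays, at 0.93 ± 0.27 and 0.99 ± 0.27 (adjusted p = 0.159 and 0.132). Nrf1, the factor of the motif above, was at 0.64 ± 0.29 and 0.98 ± 0.29 (adjusted p = 0.357 and 0.163).

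Among 21 genes of the pyruvate dehydrogenase step and the citric acid cycle, the median was -0.08 in both comparisons with ESC. Pdk4, a kinase that inhibits pyruvate dehydrogenase, had 175 and 98.5 in ESC, 139 and 94.0 in EpiSC-like cells and 456 and 406 in Day7 cells, 1.59 ± 0.33 above ESC at day 7 (adjusted p = 0.0823). Among 9 genes of ADP and ATP exchange and uncoupling, the median was -0.06 at day 3 and 0.02 at day 7 against ESC. Below ESC were 5 and 4 of them, the lowest at -0.98 and -0.89. The highest were Slc25a31 at day 3 and Slc25a4 at day 7. Slc25a31, the testis form of the ADP/ATP carrier, had 229.7 and 91.1, 479.6 and 473 and 241 and 287 and was 1.60 ± 0.40 at day 3 (adjusted p = 0.116). Slc25a4, the heart and muscle form, had 9395 and 8770.0, 10617 and 11952 and 14628 and 19619 and was 0.90 ± 0.25 at day 7 (adjusted p = 0.14).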

How the data were processed

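The values are intensities, one linear signal per probe set and array, deposited by the authors in the series' value table. Of software, Affymetrix Expression Console (1) is named, per the submitters' processing notes. Its role and the summary algorithm are not stated there. In the deposited intensity columns the mean after trimming 2% at each end was the same on all 6 arrays, 500.0. Per the labels' protocols, sorted cells gave 100 ng of total RNA per 3' array. Of 45101 probe sets, 34945 name 1 gene in the platform's annotation, for 18194 genes. The signal + 16 was taken to log2, with no filter, and each gene was read from the probe set with the highest mean of these log2 values, a scale for that mean settled after the data were seen. limma 3.58.1 (R 4.3.3) fitted 3 group means over all 6 arrays, with 3 residual and 3.52 prior degrees of freedom, checked on simulated data, and p-values were adjusted by Benjamini-Hochberg over all 18194 genes. The members, gene lists and motifs were chosen with earlier results of these data known. Named are the highest and lowest gene of each complex, the paralogous isoforms, all Sdh genes, and up to 2 uncalled genes of a list. Uqcr10, Cox7c, Ndufb4, Ndufa11 and the promoters printed were chosen after their values were seen. Fold changes on this scale understate those of dim genes. The number of arrays limits the precision. The alternatives were another pseudocount (1 or 64), a filter at the 25th percentile, centring, quantile normalization, other ways to read several probe sets, the replicate block and leaving out each array.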

Additional observations from a re-analysis of the deposited data

How the results depend on the processing

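No subunit gene was called in the fit as reported, and under the alternatives Cox7a1 was the only one that was. With a pseudocount of 64, 1 member (Cox7a1) was called at day 7 against ESC and 1 (Cox7a1) at day 7 against day 3, and with genes below the 25th percentile left out 1 (Cox7a1) at day 7 against day 3. Centring each array on its median moved the members' median to -0.13 at day 3, -0.21 at day 7 against ESC and -0.12 at day 7 against day 3, and quantile normalization to 0.0014, -0.07 and -0.02. Centring moved the median of all genes at day 7 against ESC from 0.02 to -0.15. Leaving out 1 array at a time gave members' medians of -0.25 to 0.16, -0.28 to 0.14 and -0.19 to 0.17 and no called member. Over all genes, limma called 345, 189 and 7 in the 3 comparisons, 672, 679 and 206 with a pseudocount of 64, 653, 514 and 138 with dim genes left out, and 0 in each with a pseudocount of 1. Leaving out 1 array gave 0 to 63, 0 to 10 and 0. Centring split the calls at day 7 against ESC into 96 higher and 74 lower, against 137 and 52. Centring and quantile normalization gave 12 and 0 calls at day 7 against day 3. Choosing probe sets by the linear mean, an alternative added after seeing the data, gave 346, 191 and 0. In all, 40 members had several probe sets at or above the median over all genes. These probe sets shared 1 direction for 34, 29 and 24 of the 40 members in the 3 comparisons. With the replicate number as a block, limma called 0 genes and 0 members in each comparison, and 3, 7 and 5 members had an unadjusted p under 0.05 (18.5%, 21.5% and 16.8% of all genes). Deviations of same-numbered arrays correlated at 0.28, 0.08 and 0.10 across all genes and at 0.44, 0.40 and 0.15 across members; the labels do not say what the numbers mark, so the fit without the block is the one reported. Signals near background limit Cox4i2, Cox6a2, Cox8b, Ndufb4 and Ndufa4l2 in ESC.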

Other observations

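The nuclear genes of the mitochondrial ribosome, which translates the subunits encoded by mitochondrial DNA, lay further below ESC than the subunit genes did. Of 76 such genes, 55 were below ESC at day 3 and 67 at day 7, with medians of -0.19 and -0.36, and 61 were below ESC at day 7 in both replicate numbers, as were 31.7% of all genes. None was called by limma, and 12 had an unadjusted p under 0.05 at day 7, no larger a share than the 18.3% of all genes. The median was -0.39 within replicate 1 and -0.33 within replicate 2. Mrps18b, a small subunit protein and the lowest of them, had signals of 3260.0 and 5176 in ESC, 2346 and 3192 in EpiSC-like cells and 1713 and 2272 in Day7 cells. Mrpl41, a large subunit protein, was the highest, with 1952 and 1424, 3117 and 2904 and 2368 and 2862. With arrays centred on their median, with quantile normalization and with all probe sets averaged, 73, 65 and 67 of the 76 were below ESC at day 7.

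By contrast, of 46 cytosolic ribosomal protein genes, 39 were below ESC at day 3 and 7 at day 7, with medians of -0.04 and 0.14. Centring on the array median turned the day 7 value to -0.02, with 27 of 46 below ESC, and quantile normalization gave 0.03, with 18 below. None of them was called by limma, and 3 had an unadjusted p under 0.05 at day 7. At day 7 against day 3 their median was 0.19, and 38 of 46 were higher in both replicate numbers (29.9% of all genes). That median was 0.09 with centring and 0.02 with quantile normalization.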
